A study of Mus musculus with 12 samples.

Results

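Socs1, Socs3 and Cish encode 3 members of the suppressor of cytokine signalling (SOCS) family, and their transcripts were followed in naive CD4 T cells. The genes were chosen by name as the family's cytokine-induced feedback members. They are 3 of the 10073 genes listed in the deposited table, and all 3 passed the filter on low values, which left 10021 genes for testing. The study asked which genes change with the strength of the tonic T cell receptor (TCR) signal that naive CD4 T cells receive, and measured RNA in 12 libraries, 4 sorted populations from each of 3 mice. The untreated mice carried the transgene Tg(Nr4a1-EGFP)GY139Gsat, in which regulatory sequence of Nr4a1 (Nur77), a gene that TCR signalling induces, drives GFP. They also carried the targeted mutation Foxp3tm1Flv, a red fluorescent reporter of Foxp3, on a C57/BL6 background. Every population came from spleen and lymph nodes together and was CD4+, with little CD44 and without Foxp3 reporter signal. Population A was GFP low and Ly6C+, population B was GFP intermediate and Ly6C+, population C was Ly6C negative with intermediate GFP, and population D was Ly6C negative with high GFP. A1 is the library labelled A from mouse 1, and so on. Each library is a pool of sorted cells, which received no TCR stimulus in vitro.

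SOCS proteins are a classic negative feedback loop. A cytokine receptor activates JAK kinases, these phosphorylate STAT transcription factors, and the STATs switch on SOCS genes whose products then block the same receptors and kinases or tag them for destruction through a ubiquitin ligase. SOCS1 inhibits JAK kinases directly and restrains interferon and common gamma chain cytokine signals, SOCS3 binds the gp130 receptor chain and restrains IL-6 family signals, and CISH is a STAT5 target that acts on IL-2 receptor and TCR signalling. In naive T cells, IL-7 receptor signalling is the main tonic cytokine input.

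The promoter sequences are printed here because the STAT and interferon motifs in them are the textbook link between cytokine signals and these genes. Each is the RefSeq window of 250 bases before and 50 bases after an annotated start on GRCm38.p6. It is read 5′ to 3′ on the gene's own strand, with motif matches in capitals. The windows lie at chr16:10785487-10785786 on the minus strand for Socs1, at chr11:117969317-117969616 on the minus strand for Socs3 and at chr9:107296409-107296708 on the plus strand for Cish. The Socs1 and Cish windows hold the 5′ end of the annotated gene. The annotated Socs3 gene has its 5′ end at base 117970336, outside its window, so Socs3 positions count from a start inside the gene.
Socs1: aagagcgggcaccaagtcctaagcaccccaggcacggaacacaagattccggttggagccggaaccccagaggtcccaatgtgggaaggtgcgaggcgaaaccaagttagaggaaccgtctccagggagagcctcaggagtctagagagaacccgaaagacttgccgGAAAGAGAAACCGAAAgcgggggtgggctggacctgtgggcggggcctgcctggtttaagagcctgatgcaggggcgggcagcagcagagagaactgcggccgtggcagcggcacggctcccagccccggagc
Socs3: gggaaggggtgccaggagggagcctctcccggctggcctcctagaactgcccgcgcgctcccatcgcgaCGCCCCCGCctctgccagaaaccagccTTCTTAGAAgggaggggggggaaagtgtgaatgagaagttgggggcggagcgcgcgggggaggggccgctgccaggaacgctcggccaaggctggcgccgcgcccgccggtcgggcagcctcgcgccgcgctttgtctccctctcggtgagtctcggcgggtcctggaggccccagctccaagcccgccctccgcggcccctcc
Cish: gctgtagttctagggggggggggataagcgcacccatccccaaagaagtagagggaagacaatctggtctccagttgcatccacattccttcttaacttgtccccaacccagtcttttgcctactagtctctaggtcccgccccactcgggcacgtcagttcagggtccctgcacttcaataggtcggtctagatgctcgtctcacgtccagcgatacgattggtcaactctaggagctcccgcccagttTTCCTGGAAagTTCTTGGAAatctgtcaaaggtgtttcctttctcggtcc
Motifs were searched on both strands as TTCNNNGAA for STAT factors, the wider STAT6-type spacing (TTC and GAA with 4 bases between), the core of the interferon-stimulated response element (GAAA and GAAA with 2 bases between), GCGNGGGCG for EGR factors, TGANTCA for AP-1 and AAAGGTCA for NR4A monomers. The Socs1 window held 2 overlapping interferon-element matches, GAAAGAGAAA at -83 to -74 and GAAACCGAAA at -77 to -68 from the start. The Socs3 window held the STAT match TTCTTAGAA at -154 to -146 and an EGR match on the opposite strand at -181 to -173, printed as CGCCCCCGC. The Cish window held the STAT matches TTCCTGGAA at 1 to 9 and TTCTTGGAA at 12 to 20, counted from 1 at the start. Of the 32851 promoters in the RefSeq table, 8.3% held TTCNNNGAA, 6.95% the STAT6-type motif, 3.44% the interferon element core, 5.55% GCGNGGGCG, 7.81% TGANTCA and 1.51% AAAGGTCA. Among the 8142 tested genes with a window in that table, 6.95% held TTCNNNGAA, 3.19% the interferon element core and 10.55% GCGNGGGCG. No AP-1, NR4A or STAT6-type match was found in these 3 windows, which says only that those letters are not there, and a match is a description of sequence and not a measured binding site.

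Values are RPKM, that is, reads scaled to a kilobase of gene and to a library of 1 M (mega) reads, so levels can be compared between genes. Read depth recovered from the table ran between 6.31 and 9.07 M reads per library. Transcripts of naive CD4 T cells were present throughout, with Cd4 at 223.5 (B3) to 249.5 RPKM (C2) and Cd3e at 267.8 (C3) to 294.3 RPKM (C2). Several libraries went against their gates. The sort-marker transcript Nr4a1 was at 57.7, 26.1 and 22.9 RPKM in A1, A2 and A3, at 36.0, 73.3 and 64.6 RPKM in B1, B2 and B3, at 23.4 to 28.3 RPKM in the libraries labelled C, and at 58.7 to 67.8 RPKM in those labelled D. A1 was thus close to the D libraries, B1 was the lowest of B, and every library labelled C, though GFP intermediate by its label, was below A1. Ly6c1, a gene for a Ly6C protein, was at 59.3 to 67.0 RPKM in the libraries labelled C, whose gate was Ly6C negative, against 37.1 to 50.2 RPKM in those labelled B, whose gate was Ly6C positive. C3 also held transcripts of antibody-secreting and dividing cells, with 709 RPKM of Jchain and 17.0 RPKM of Mki67. The B and C libraries thus carried Ly6c1 in the order opposite to their gates, and B2 and B3 carried as much Nr4a1 as the D libraries. An exchange of labels and a difference between the sorted cells cannot be told apart by these values. Directions and the names of the steps below follow the labels only. Calls of members that came when A1, B1 or C3 were left out are given with and without them, though not every difference is.

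Socs3 was the abundant member. On average it was lowest in the libraries labelled D and highest in those labelled C, with A and B spread across both levels. Socs3 (Entrez 12702) had 77.8, 98.1 and 101.7 RPKM in A1, A2 and A3, and 106.7, 72.5 and 77.0 RPKM in B1, B2 and B3. It had 106.4, 103.2 and 92.7 RPKM in C1, C2 and C3, and 73.6, 76.3 and 73.0 RPKM in D1, D2 and D3. The libraries thus fell into a low level, held by the 3 D libraries with B2, B3 and A1, and a high level, held by the 3 C libraries with A2, A3 and B1. No library lay between A1 at 77.8 RPKM and C3 at 92.7 RPKM. Means were 92.5 ± 12.9 RPKM in A, 85.4 ± 18.6 RPKM in B, 100.8 ± 7.20 RPKM in C and 74.3 ± 1.74 RPKM in D (SD, n = 3 each). In order the means ran D, B, A and C, and only the ranges of D and C and of D and A did not overlap. Each value rested on 1624 to 2629 reads, which puts counting error alone at 1.95% to 2.48% of a value, so the 21.7% and 13.9% spreads (SD as a share of the mean) in B and A were far wider than counting error.

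**Figure D1:**
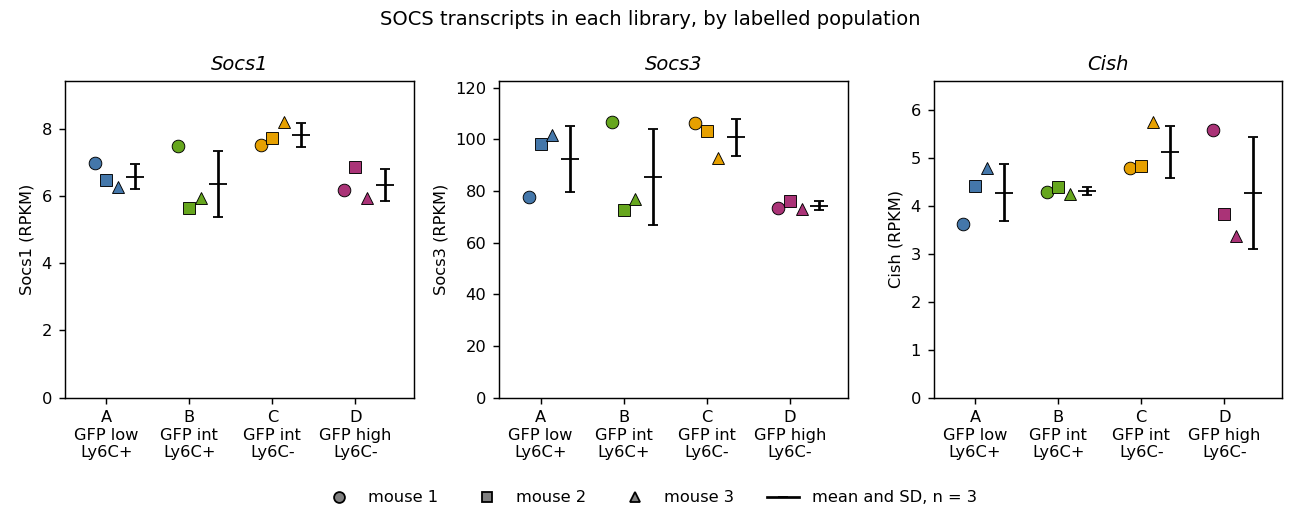
RPKM of Socs1, Socs3 and Cish in each of the 12 libraries by labelled population (points, shaped by mouse), with the mean and SD of 3 libraries as a bar. Socs3 in the 3 D libraries sits between 73.0 and 76.3 RPKM, below the C libraries at 92.7 to 106.4 RPKM, while the A and B libraries reach both levels.

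The 6 libraries lowest in Socs3 were the 6 highest in Nr4a1. Nr4a1 ordered the libraries, low to high, as A3, C3, A2, C1, C2, B1, A1, D1, B3, D2, D3 and B2, and B2, with the most Nr4a1 at 73.3 RPKM, had the least Socs3 at 72.5 RPKM. Cd5, a surface receptor whose level follows TCR signal strength, put the same 6 libraries at its high end, from A1 at 240.8 RPKM to B2 at 331.7 RPKM. Within mouse 1, A1 had more Nr4a1 than B1, against the order of their gates. There Socs3 was at 106.7 RPKM in B1, against 77.8 RPKM in A1. In mice 2 and 3 it was lower in the library labelled B, at 72.5 and 77.0 RPKM, against 98.1 and 101.7 RPKM in that labelled A. This order of values is a description, since libraries that share a level also share other transcripts, and in sorted pools fewer cells with a transcript cannot be told apart from less of it in each cell.

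**Figure D2:**
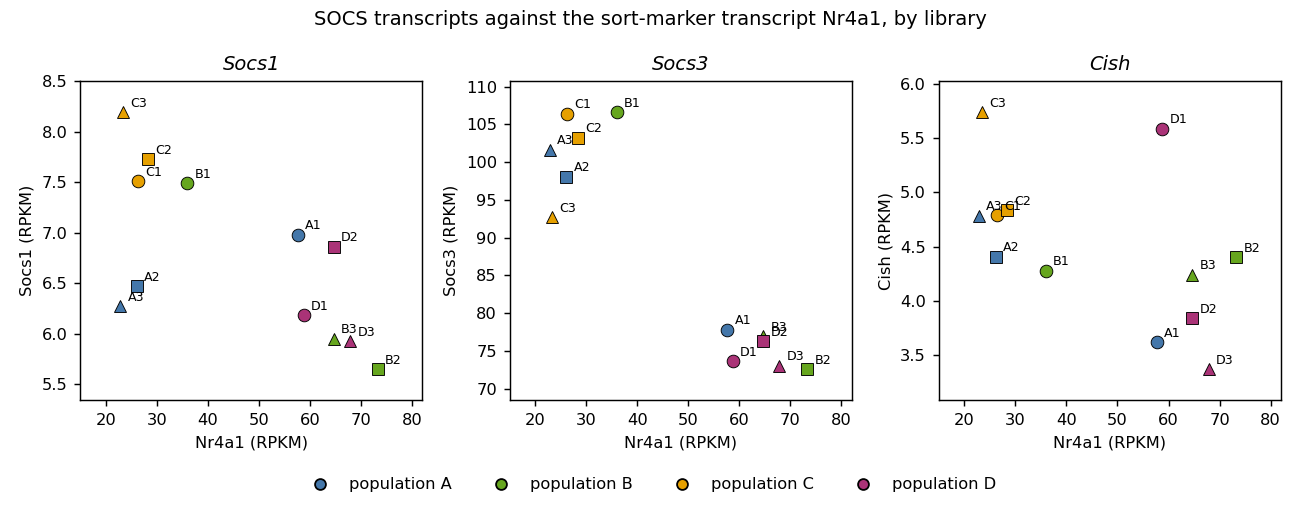
RPKM of Socs1, Socs3 and Cish (vertical axes, which do not start at 0) against RPKM of Nr4a1 (horizontal axis) in the 12 libraries, coloured by labelled population. For Socs3 the libraries form a high group with Nr4a1 of 22.9 to 36.0 RPKM and a low group with Nr4a1 of 57.7 to 73.3 RPKM; B1 sits with C, and A1, B2 and B3 sit with D.

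Socs1 was the next member by level and had its highest values in the libraries labelled C. Socs1 (Entrez 12703), the JAK inhibitor, had 6.98, 6.47 and 6.27 RPKM in A1, A2 and A3, and 7.49, 5.65 and 5.95 RPKM in B1, B2 and B3. It had 7.51, 7.73 and 8.20 RPKM in C1, C2 and C3, and 6.18, 6.86 and 5.93 RPKM in D1, D2 and D3. Every C library was above every library of the other populations, although C1 exceeded B1 by only 7.51 against 7.49 RPKM. Means were 6.57 ± 0.37 RPKM in A, 6.36 ± 0.99 RPKM in B, 7.81 ± 0.35 RPKM in C and 6.32 ± 0.48 RPKM in D (SD, n = 3 each), and the D, B and A means differed by less than their spread. With 97 to 167 reads per library, counting error alone was 7.74% to 10.15% of a value, wider than the spread between libraries within A, C and D.

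Cish was the least abundant of the 3. Its C libraries were above all A and B libraries, those of D spanned nearly the whole range, and no difference passed by limma in any fit. Cish (Entrez 12700), the STAT5 target, had 3.62, 4.41 and 4.79 RPKM in A1, A2 and A3, and 4.28, 4.40 and 4.24 RPKM in B1, B2 and B3. It had 4.79, 4.84 and 5.74 RPKM in C1, C2 and C3, and 5.59, 3.84 and 3.37 RPKM in D1, D2 and D3. C1 exceeded A3 by only 4.793 against 4.786 RPKM. The D libraries held both the lowest value, in D3, and the next to highest, in D1. The highest value was in C3, the library with antibody and proliferation transcripts. Means were 4.27 ± 0.59 RPKM in A, 4.31 ± 0.08 RPKM in B, 5.12 ± 0.54 RPKM in C and 4.27 ± 1.17 RPKM in D (SD, n = 3 each). Cish rested on 85 to 140 reads per library, or a counting error of 8.45% to 10.85%, so the 27.4% spread in D was wider than counting gives and the 1.95% spread in B was narrower.

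The GFP step among Ly6C negative cells compared D with C, by label. Socs3 was 0.737 times as high in D as in C by the ratio of means, and lower in D in 3 of 3 mice, by -0.53, -0.43 and -0.34 on the log2(RPKM + 0.5) scale. In the limma fit of all 12 libraries the difference was -0.43 ± 0.13 (log2, SE) with an adjusted p of 0.124 (0.00556 unadjusted), so it did not pass the threshold of 0.05. Socs1 was 0.81 times as high in D, lower in 3 of 3 mice, with a limma difference of -0.29 ± 0.10 and an adjusted p of 0.160. Cish was 0.832 times as high in D but lower in only 2 of 3 mice, and its limma difference was -0.26 ± 0.15 with an adjusted p of 0.385. In this fit 0 of the 3 members passed, as in limma-voom on recovered reads, with 2 of them at an unadjusted p under 0.05, against 1 of all 10021 genes that passed (0.00998%) and 1817 at an unadjusted p under 0.05. The D and C libraries did not overlap for Socs3 and Socs1, as for 9.89% of all genes tested that were lower in D without overlap.

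Fitted on the 6 libraries of D and C alone, Socs3 fell in D, by -0.43 ± 0.06 (log2, SE) with a limma adjusted p of 0.00449. In that fit 1.45% of all genes tested fell in D. The limma adjusted p lay between 0.000239 and 0.0336 when each of these 6 libraries was left out in turn. Socs1 had an adjusted p of 0.106 and Cish of 0.475 in the limma fit of these 6 libraries. The fit of 12 libraries takes its spread from A and B as well, where A1 and B1 lay far from the other libraries of their populations. With B1 left out, the limma adjusted p for Socs3 in D against C was 0.0282, in a fit where 1.13% of all genes tested fell in D.

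The GFP step among Ly6C+ cells compared B with A, and no member passed. The limma difference was -0.13 ± 0.13 (adjusted p = 0.587) for Socs3, -0.05 ± 0.10 (adjusted p = 0.785) for Socs1 and 0.02 ± 0.15 (adjusted p = 0.956) for Cish, on the log2 scale with SE. The B and A libraries overlapped for all 3 members. By limma 223 of all genes (2.23%) passed in this comparison, or 2 with the mouse number as a replicate block and 0 without A2, without B2 or without B3, and 0 of the 3 members had an unadjusted p under 0.05. Socs3 was lower in B in 2 of 3 mice and higher in mouse 1, the animal of A1 and B1. Without A1 and B1, Socs3 fell in B by -0.42 ± 0.07 with a limma adjusted p of 0.00360, and 4.26% of genes fell. Those libraries were left out for their Nr4a1 values. The libraries high in Nr4a1 were those low in Socs3, though within each of these levels the order was not simply reversed. The fits without A1 and B1 are thus not independent of the Socs3 level. B2 and B3, with as much Nr4a1 as the D libraries, were kept.

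The Ly6C step among GFP intermediate cells compared C with B, by labels that Ly6c1 went against. Socs1 was higher in C in 3 of 3 mice, by 0.004, 0.42 and 0.43 on the log2 scale, with a limma difference of 0.29 ± 0.10 and an adjusted p of 0.287. Socs3 was higher in C in 2 of 3 mice, with a limma difference of 0.26 ± 0.13 and an adjusted p of 0.409. For Cish the limma difference was 0.22 ± 0.15 with an adjusted p of 0.544, and it was higher in C in 3 of 3 mice. Of all genes, 1 passed (0.00998%) by limma, and 1342 had an unadjusted p under 0.05, Socs1 among them. The C and B libraries did not overlap for Socs1 and Cish, against 6.31% of genes that were higher in C without overlap. With B1 left out, Socs1 rose in C by 0.40 (limma adjusted p = 0.0357) and Socs3 rose by 0.43 (limma adjusted p = 0.0421), while 1.38% of genes rose. With A1 and B1 left out, the limma adjusted p was 0.0168 for Socs1 and 0.00167 for Socs3, in a fit where 2.76% of genes rose in C. B1 had the most Socs3 of all libraries, so the fits without it are not independent of the Socs3 level.

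The ends of the sort were compared as D against A. Socs3 was lower in D in 3 of 3 mice, by -0.08, -0.36 and -0.47, and the libraries did not overlap, as for 11.7% of genes that were lower in D. The limma difference for Socs3 was -0.30 ± 0.13 with an adjusted p of 0.234 in the fit of 12 libraries, where 0.00998% of genes passed, and the adjusted p was 0.120 on the libraries of D and A alone. Socs1 differed by -0.05 ± 0.10 (limma adjusted p = 0.798) and Cish by -0.02 ± 0.15 (limma adjusted p = 0.950). Without A1 and B1, Socs3 fell in D by -0.42 ± 0.06 (limma adjusted p = 0.00175), among 2.76% of genes that fell. A1 had the least Socs3 of the A libraries, so that fit is not independent of the Socs3 level. In C against A the limma differences were 0.23 ± 0.10 for Socs1 (adjusted p = 0.319), 0.13 ± 0.13 for Socs3 (adjusted p = 0.644) and 0.24 ± 0.15 for Cish (adjusted p = 0.462), and 0% of genes passed, or 322 genes without C1. Socs1 and Cish in the C libraries were above all A libraries, as were 8.27% of genes, though Cish by only 4.793 (C1) against 4.786 RPKM (A3). In D against B the limma differences were -0.00 ± 0.10 for Socs1, -0.18 ± 0.13 for Socs3 and -0.04 ± 0.15 for Cish, with adjusted p of 1.00, 0.958 and 0.985 in that order, and 0% of genes passed. Unadjusted p was under 0.05 by limma for 1422 genes in C against A and 410 in D against B, and limma-voom on recovered reads also called 0 genes in each.

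**Figure D3:**
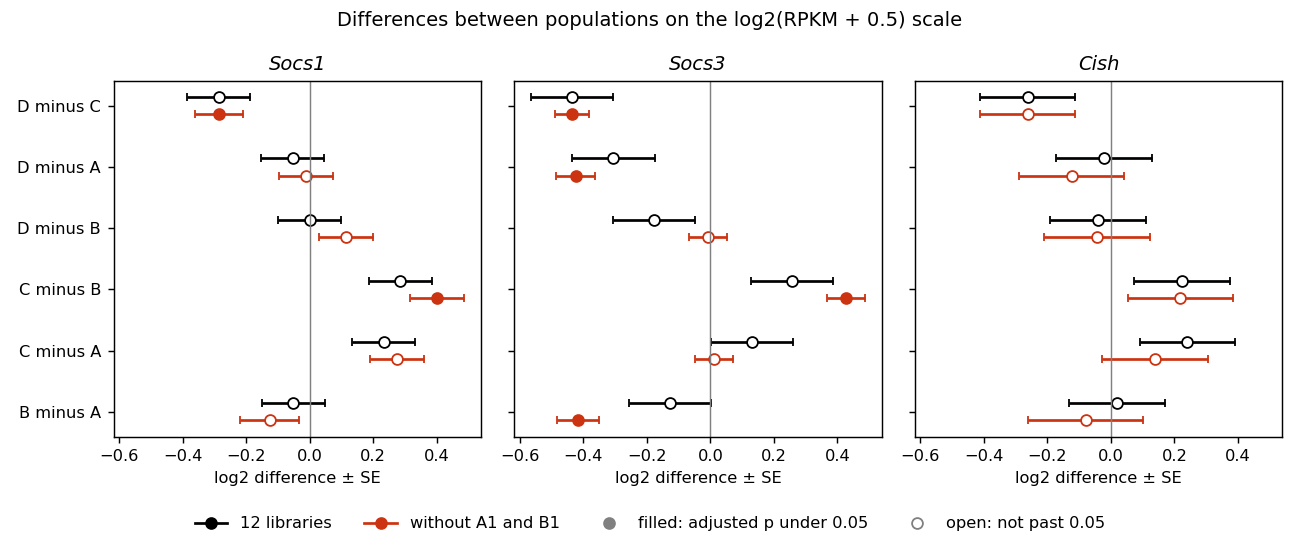
Difference between populations in log2(RPKM + 0.5) with its SE from limma, for each member and pair of populations, in the fit of 12 libraries (black) and without A1 and B1 (red); filled points have an adjusted p under 0.05. No black point is filled, whereas for Socs3 the points for D minus C, D minus A, C minus B and B minus A are filled without A1 and B1, each at about -0.42 to -0.43 or, for C minus B, at 0.43. The Socs1 points for D minus C and C minus B are also filled without A1 and B1. A1 and B1 were left out for their Nr4a1 values, which were high where Socs3 was low, so the red fits are not independent of Socs3.

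The GFP step was not shown to differ between Ly6C negative and Ly6C+ cells for any member. The difference of steps, (D minus C) minus (B minus A), was -0.31 ± 0.18 for Socs3 (limma adjusted p = 0.438), -0.23 ± 0.14 for Socs1 (0.441) and -0.28 ± 0.21 for Cish (0.541), with 0% of genes past the threshold and 1507 at an unadjusted p under 0.05, and limma-voom on recovered reads called 0 as well. Without C1, 261 genes passed, no member among them. Without A1 and B1 it was -0.02 ± 0.09 for Socs3 (limma adjusted p = 0.942), with B minus A at -0.42 and D minus C at -0.43. The limma F test over the 4 populations gave adjusted p of 0.192 for Socs3, 0.211 for Socs1 and 0.517 for Cish, and 0.00998% of genes passed it. Without B1 alone the F test passed for Socs3 (limma adjusted p = 0.0404) and for 4% of all genes. Without A1 and B1 it passed for Socs3 (limma adjusted p = 0.000609) and Socs1 (limma adjusted p = 0.0388), and for 9.63% of all genes. As above, fits without B1, or without A1 and B1, are not independent of the Socs3 level. Socs1 in D against C passed without A1 and B1 (limma adjusted p = 0.0457), where 2.58% of genes fell, but not when C3 was left out as well (limma adjusted p = 0.108), whereas Socs3 then reached a limma adjusted p of 3.475e-05, with 2.77% of genes lower.

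No other SOCS gene in the table passed between D and C. Socs4, Socs5, Socs6 and Socs7 averaged 26.9, 4.42, 3.83 and 8.0 RPKM over the 12 libraries, and Socs2 was not among the listed genes. Socs4, a member linked to growth factor receptors, was the steadiest at 25.7 to 28.7 RPKM in every library. In D against C on their 6 libraries alone, limma gave 0.01 ± 0.05 for Socs4, 0.23 ± 0.10 for Socs5, 0.10 ± 0.11 for Socs6 and 0.13 ± 0.07 for Socs7, with adjusted p between 0.273 (Socs5) and 0.958 (Socs4). Of 7 family members measured, 1 fell (Socs3) and 0 rose, against 1.45% and 3.35% of all genes, with a median of 0.01 against 0.01 for all genes. Of the 6 measured partners that join SOCS proteins into a ubiquitin ligase, none passed in D against C by limma, at an adjusted or an unadjusted p under 0.05 on the 6 libraries. In B against A the adaptor Eloc fell by -0.36 ± 0.08 (limma adjusted p = 0.0463, 12 libraries), a call lost with the replicate block (0.0694) and without A1 and B1 (0.0772).

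The receptors that feed this loop moved in D against C, in both directions, on the 6 libraries alone, where 3.35% of all genes rose and 1.45% fell. Of 29 genes called over all lists in that fit, 28 were also called without C3 and 20 without C2, without D2 or without D3. The calls of Il4ra, Il6ra, Il10ra, Ccnd2, Gbp2 and Cd8b1 below were lost in at least 4 of the 6 fits that left out a library, and those of Psmb9 and Stat5a in 5 and 3. Of 7 common gamma chain receptor genes 2 rose and 2 fell, with a list median of -0.10 against 0.01 for all genes. Il2rb, the signalling chain for IL-2 and IL-15, was at 30.9, 34.6 and 30.3 RPKM in D1, D2 and D3, against 8.47, 8.17 and 7.02 RPKM in C1, C2 and C3. It rose by 1.95 ± 0.09 (limma adjusted p = 1.57e-05), and Il2ra, the high-affinity IL-2 receptor chain, rose by 1.32 ± 0.13. Il7r, the IL-7 receptor chain, was at 86.2, 77.5 and 81.7 RPKM in D1, D2 and D3, against 148.5, 145.7 and 122.8 RPKM in C1, C2 and C3. Il7r fell by -0.76 ± 0.08 (limma adjusted p = 0.000963) and Il4ra, the IL-4 receptor chain, by -0.24 ± 0.06 (limma adjusted p = 0.0431), while the shared chain Il2rg differed by -0.10 (limma adjusted p = 0.288).

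Among 6 gp130 and IL-10 receptor genes 2 rose and 1 fell, against 3.35% and 1.45% of all genes, with a median of 0.01. Il6st, which encodes the gp130 chain that SOCS3 binds, was at 113.2, 111.5 and 109.5 RPKM in D1, D2 and D3, against 75.9, 71.4 and 71.0 RPKM in C1, C2 and C3. Il6st rose by 0.61 ± 0.05 (limma adjusted p = 0.000199) and Il6ra, the IL-6 binding chain, fell by -0.32 ± 0.06 (limma adjusted p = 0.0175). Il10ra, the IL-10 receptor chain, rose by 0.42 ± 0.08 (limma adjusted p = 0.0262), and it also rose in B against A by 0.42 ± 0.08 in the fit of 12 libraries (limma adjusted p = 0.0367), a call lost with the replicate block (0.0575). Of 5 interferon and IL-12 receptor genes none passed on the 6 libraries by limma, with 2 at an unadjusted p under 0.05, as were 1839 of all 10021 genes. In D against C no gene of these receptor lists passed in the fit of 12 libraries, where the limma adjusted p was 0.110 for Il2rb, 0.106 for Il6st and 0.106 for Il7r.

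Among 11 JAK and STAT genes 2 rose and 0 fell in D against C on the 6 libraries, against 3.35% and 1.45% of all genes. Their median was 0.16 against 0.01 for all genes. Jak2, a kinase on gp130 and interferon-gamma receptors, rose by 0.53 ± 0.07 (limma adjusted p = 0.00354) and Stat5a, a factor downstream of IL-2 and IL-7, rose by 0.33 ± 0.06 (limma adjusted p = 0.0211). Stat3, the main factor downstream of gp130, differed by 0.03 (limma adjusted p = 0.800). Jak1, Jak3, Tyk2 and Stat5b differed by 0.16, 0.26, 0.08 and 0.20, with limma adjusted p of 0.145, 0.127, 0.601 and 0.0529 in that order. Of 11 other brakes on the pathway, such as the phosphatases Ptpn2 and Ptpn6, none passed by limma. Of these brakes 2 had an unadjusted p under 0.05, as had 1839 of all 10021 genes.

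**Figure D4:**
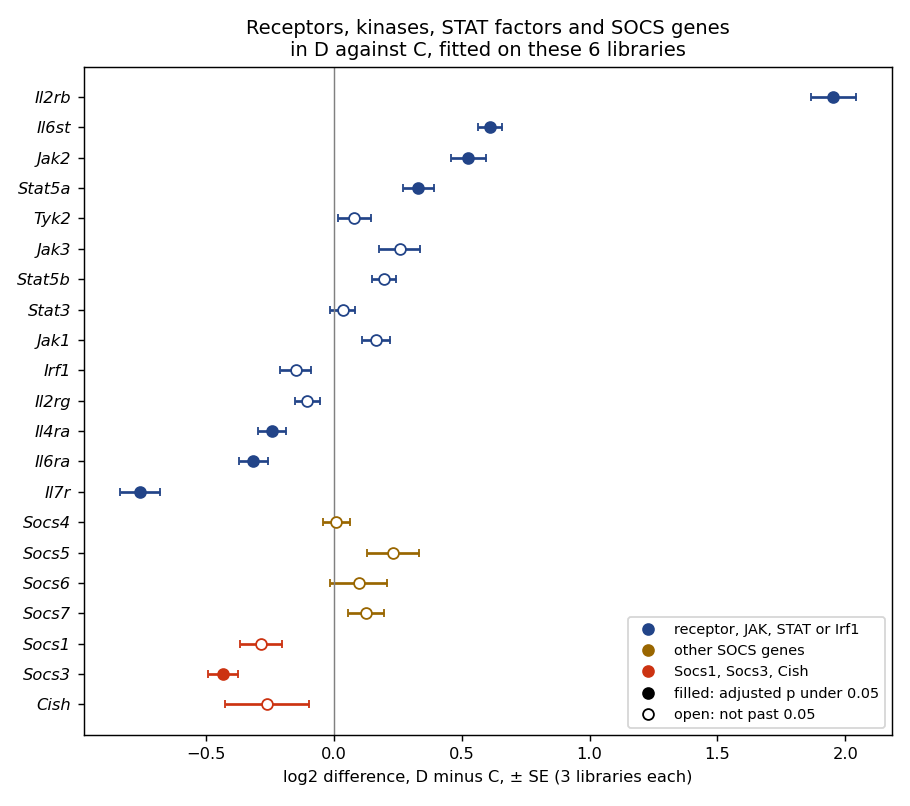
Difference of D minus C in log2(RPKM + 0.5) with its SE from limma on the 6 libraries of D and C, for receptors, kinases and STAT factors (blue), the other SOCS genes (brown) and Socs1, Socs3 and Cish (red); filled points have an adjusted p under 0.05. Il2rb, Il6st, Jak2 and Stat5a lie to the right of 0 and Il7r, Il6ra, Il4ra and Socs3 to the left.

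Socs3 went against most called genes of the STAT3-induced list it belongs to. Of 10 such genes 5 rose and 1, Socs3, fell in D against C on the 6 libraries, against 3.35% and 1.45% of all genes, with a median of 0.41 against 0.01 for all genes. Bcl6, the follicular helper repressor, rose by 1.45 ± 0.07 (limma adjusted p = 1.91e-05), Maf by 1.40 ± 0.10 (limma adjusted p = 0.000181) and the cytokine Il21 by 1.62 ± 0.16 (limma adjusted p = 0.000763). Of 12 STAT5-induced genes, Cish among them, 1 rose (Il2ra) and 1 fell (Ccnd2, a cyclin, by -0.23 with a limma adjusted p of 0.0229), with a median of -0.13. Of 22 interferon-induced genes, Socs1 among them, 0 rose and 2 fell, with a median of -0.04. These were the GTPase Gbp2 (-0.24, limma adjusted p = 0.0295) and the immunoproteasome subunit Psmb9 (-0.25, limma adjusted p = 0.0424), and Irf1 differed by -0.15 (limma adjusted p = 0.236). Of 10 TCR signal readouts 7 rose and 0 fell, against 3.35% and 1.45% of all genes, with Tnfrsf9 up by 3.47 ± 0.11, Nr4a3 by 1.46 ± 0.11, Nr4a1 by 1.28 ± 0.08 and Cd5 by 0.81 ± 0.06. D and C were sorted apart by GFP under Nr4a1 regulatory sequence, so the rise of Nr4a1 is not independent of the sort. In B against A over 12 libraries, 1 of the 10 STAT3-induced genes (Bcl3, 0.46 ± 0.09, limma adjusted p = 0.0415) and 1 of the 10 TCR readouts (Cd5, 0.61 ± 0.14, limma adjusted p = 0.0487) rose, and both calls were lost with the replicate block (0.0671 for Bcl3 and 0.0807 for Cd5). The lists were chosen with earlier results of these data known, and in the fit of 12 libraries 0 genes of these 4 lists passed in D against C by limma, with 5, 2, 2 and 7 higher and 2, 3, 5 and 0 lower at an unadjusted p under 0.05, in the order STAT3, STAT5, interferon and TCR. In that fit 1817 of all 10021 genes had an unadjusted p under 0.05 by limma, in either direction.

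Regulatory T cell markers were high in the libraries low in Socs3. All 4 regulatory T cell markers on the list were measured, and their summed level was 34.1 to 43.6 RPKM in D, against 8.20 to 13.4 RPKM in C. Most of that sum was Ctla4, at 21.8 to 32.3 RPKM in D and 5.7 to 10.8 RPKM in C. Foxp3 itself was at 3.25 to 3.99 RPKM in D and 1.27 to 1.45 RPKM in C, so the sum does not measure the share of regulatory T cells. All 4 markers rose in D against C on the 6 libraries, as did 3.35% of all genes. Foxp3 rose by 1.16 ± 0.11 (limma adjusted p = 0.000721) and Ikzf2 by 2.47 ± 0.10 (limma adjusted p = 1.29e-05), with Ctla4 up by 1.60 ± 0.23. That sum was also high, at 45.7, 41.8 and 32.8 RPKM, in A1, B2 and B3, the other libraries low in Socs3, and none of these markers was at 0 in any library. B and plasma cell markers, 4 of 7 measured, summed to 22.6 to 50.3 RPKM in 11 libraries and to 1071 RPKM in C3. Immediate early genes of cell handling, 14 of 16 measured, summed to 1365 to 1575 RPKM in D, against 1481 to 1757 RPKM in C. On the 6 libraries none of the 14 passed by limma, with 1 higher and 6 lower in D at an unadjusted p under 0.05. Of all 10021 genes, 1839 were under it in that fit, in either direction. Of the other marker genes listed, Cd8b1, a CD8 chain, fell in D against C by -0.44 ± 0.09 (limma adjusted p = 0.0354) on their 6 libraries. Klrd1, a killer cell receptor gene, was the 1 measured of 5 natural killer cell markers. On the 6 libraries of D and A it fell in D by -0.75 ± 0.06 (limma adjusted p = 0.00325), and 2 of all 10021 genes fell. That call was lost over 12 libraries (limma adjusted p = 0.151), with the replicate block there (0.212) and with the block on the 6 libraries (0.0967). In B against A over 12 libraries, Klrd1 fell by -0.81 ± 0.17 (limma adjusted p = 0.0463), a call also lost with the block (0.0552). The part of these transcripts in the Socs3 and Socs1 differences was not tested, apart from the fits without C3.

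For likeness of pattern, 8734 genes that averaged 2 RPKM or more were ranked by Pearson r of log2(RPKM + 0.5) with each member over the 12 libraries, as a description of libraries that share mice, depth and sort. Genes without a symbol were left out. So were clone or predicted-gene symbols, such as Gm and Rik names, and symbols that start with a capital letter followed by digits. Nearest to Socs3 were Igfbp4, which encodes an insulin-like growth factor binding protein, at r = 0.975, Arl4c, a small GTPase gene, at 0.974, Fam78a at 0.971, and Hs3st3b1, a heparan sulfate sulfotransferase gene, and Emp3 at 0.967 each. Socs3 was far from alone in its pattern, since 86 of the ranked genes had r of at least 0.9 with it and 161 had r of -0.9 or less. Nearest to Socs1 were Btg2, an antiproliferative gene, at r = 0.944, Lpar5 at 0.918, Ndufa6 at 0.90, Rpl26 at 0.899 and Rpl22 at 0.883. Nearest to Cish were Engase at r = 0.858, Nxn at 0.820, Nfic at 0.807, Tmem120b at 0.786 and Bex3 at 0.783, and no ranked gene reached 0.9 with it. Between members r was 0.656 for Socs1 with Socs3, 0.355 for Socs1 with Cish and 0.376 for Socs3 with Cish.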

How the data were processed

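RNA of 12 libraries was analysed. Per the labels' protocols, sorted cells were lysed, and polyadenylated RNA was made into libraries with the SMART-seq v4 and NexteraXT kits. The submitters' processing notes name STAR and the builds mm9 and mm10; for the counting tool, the sources used here give no name. The authors deposited 1 table of RPKM values, per the file headers, for 10073 genes. Multiplied by length and depth, 100.0% of the 8797 to 9376 values examined per library came within 0.1 of a whole read, at depths of 6.31 to 9.07 M reads, of which 99.07% to 99.71% lay in listed genes.

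Values were put on the log2(RPKM + 0.5) scale. The 10021 genes that averaged 0.5 RPKM or more were fitted over all 12 libraries, without a block, by limma 3.58.1 (R 4.3.3) with its mean-variance trend. Fold changes on this scale understate low genes. P-values were adjusted by Benjamini-Hochberg within each of 6 pairwise comparisons, the difference of steps and the F test, with 0.05 as threshold. Python 3.11.15, numpy 2.4.6, pandas 2.3.3 and matplotlib 3.10.9 did the rest. The limma step and the read recovery were tested on simulated data. Promoter sequences came from RefSeq (GRCm38.p6), matched by gene ID for 3 of 3 members.

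Replicates are separate mice, and the labels tie libraries of 1 mouse number to 1 animal, so the numbers pair the libraries. Deviations of same-numbered libraries had a mean correlation of -0.072 (-0.613 to 0.379, 1 of 18 pairs over 0.1), against 0.032 for other libraries.

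Members and gene lists were chosen with earlier results of these data known. Genes were named by rule: the members in full, the other SOCS genes, Nr4a1, Ly6c1 and Cd5, fixed upstream genes, up to 4 called members of each list by smallest p, and the 5 genes of highest r with each member. Some genes due under this rule are not reported here. Jchain and Mki67 were named after their values were seen, and Ptpn2 and Ptpn6 only as examples of a list. Alternatives were pseudocounts of 0.1 and 1, a filter of 5 RPKM or none, quantile normalization, median rescaling, the compared populations alone, a replicate block, no trend, limma-voom on recovered reads, removal of a GC and length trend, and leaving out libraries.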

Additional observations from a re-analysis of the deposited data

How the results depend on the processing

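Over 24 results and 32 settings, 578 of 622 alternative values kept their direction and their side of the threshold, 26 passed the threshold where the fit of 12 libraries did not, and 18 changed sign, of which 0 were called and the furthest from 0 was at 0.115. Changes of pseudocount, filter, scaling and trend moved no member past the threshold. No member was called over 12 libraries, so no call could be lost, and calls came with the libraries fitted. For Socs3, D minus C was -0.43 with the 2 populations alone (limma adjusted p = 0.00449), -0.43 with that and a replicate block (0.00595), -0.43 without A1 and B1 (0.000571) and -0.49 without A1, B1 and C3 (3.475e-05). Without A1 and B1, Socs3 had -0.42 for B minus A, 0.43 for C minus B, -0.42 for D minus A and F = 34.8, and Socs1 had -0.29 for D minus C, 0.40 for C minus B and F = 8.80. Without A1, B1 and C3, Socs3 had -0.42 for B minus A, 0.49 for C minus B, -0.42 for D minus A and F = 63.8, and Socs1 had 0.37 for C minus B. With the replicate block on 12 libraries, where mouse numbers pair the libraries, Socs3 D minus C was -0.43 ± 0.14 (limma adjusted p = 0.204), and the block changed no member's call. Sign changes were Socs1 D minus B at 0.015 (limma-voom), 0.11 (without A1 and B1), 0.023 (GC and length trend removed) and 0.11 (without A1, B1 and C3), and Cish B minus A at -0.079 (without A1 and B1), -0.084 (GC and length trend removed) and -0.079 (without A1, B1 and C3). Leaving out 1 library gave ranges of -0.49 to -0.40 for Socs3 D minus C, 0.15 to 0.43 for Socs3 C minus B, 2.89 to 11.2 for the F of Socs3, 0.21 to 0.40 for Socs1 C minus B, -0.17 to 0.022 for Socs1 B minus A, -0.075 to 0.11 for Socs1 D minus B, -0.083 to 0.096 for Cish B minus A, -0.21 to 0.12 for Cish D minus A and -0.23 to 0.097 for Cish D minus B. It also gave -0.30 to -0.02 for Socs3 B minus A, 0.011 to 0.20 for Socs3 C minus A, -0.285 to -0.008 for Socs3 D minus B, -0.42 to -0.23 for Socs3 D minus A and -0.45 (without D1, limma adjusted p = 0.223) to -0.13 for Cish D minus C, and for the difference of steps -0.415 to -0.14 for Socs3, -0.31 to -0.12 for Socs1 and -0.47 to -0.14 for Cish. On the libraries of D and C alone, leaving out 1 gave -0.49 (C3) to -0.40 (C1) for Socs3, with -0.45 without D2. The background counts of limma calls over all genes moved more than the members. In B minus A 223 genes passed over 12 libraries, against 2 with the replicate block, 3 with no trend, 3 with the GC and length trend removed, 380 with the 2 populations alone, 1094 without A1 and B1, and 0 (without A2, B2 or B3) to 461 (without C1 or C3) leaving out 1 library. In D minus C it was 1 gene over 12 libraries, against 481 with the 2 populations alone and 765 without A1 and B1; C minus B had 776 and D minus A 886 without A1 and B1, against 1 each. Leaving out 1 library, D minus C had 288 without A1 and 398 without B1, D minus A 362 without A1, C minus B 386 without B1, C minus A 322 without C1 (0 over 12 libraries), and the difference of steps 261 without C1 (0 over 12). Cish, below 5 RPKM on average, gave no value under the filter of 5 RPKM. The fits without A1, B1 and C3, those of 2 populations with a block and those of D and C leaving out a library were chosen after seeing the data. Why A1 and B1 differ from the other libraries of their populations was not tested, and the fits without them are not independent of the Socs3 level. Counting error limits Socs1 and Cish more than Socs3, and 3 mice limit every comparison.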
